A study of Mus musculus with 24 samples.

Results

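Of 25793 gene symbols in the count tables, 8 were examined: *Gm8615*, *Gm9855*, *Gm10154*, *Gm6969*, *Gm5801*, *Gm9199*, *C030023E24Rik* and *Aytl1b*. They were selected because their counts were near all-or-none between 16GsoT/T and wild type (WT) mice in 1 or more comparisons, so every difference between the genotypes in these 8 genes is given as a description, with no test. The study sequenced mRNA from cerebellum (CB) and hippocampus (HC) at postnatal day 14 (P14) and 35 (P35), with 3 libraries for each genotype, region and age, 24 in all. 16GsoT/T mice are homozygous for 16Gso, a reciprocal translocation of chromosomes 5 and 8 whose chromosome 5 breakpoint lies between *Galnt17* (listed here as *Wbscr17*) and *Auts2*. WT mice carry neither translocated chromosome. The labels give a C57BL/6 background for all 8 groups, the names of the WT libraries outside P14 CB carry B6C3, and the methods describe a mixed C57BL/6 and C3H/He background. The 16GsoT/T mice were bred from homozygous parents. The RNA came from males, as the study describes it. In P14 CB the WT libraries are 1, 2 and 3 and the 16GsoT/T libraries 4, 5 and 6. In P35 CB they are M27, M28 and M29 and C19, C20 and C21, in P14 HC N4, N5 and N6 and A13, A14 and A18, and in P35 HC N10, W481 and W483 and B10, B11 and B12.

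Between 2563968 (P35 HC) and 40564789 (P14 CB) reads per library were counted on genes. *Wbscr17*, which flanks the breakpoint, had a mean level 1.23 to 2.04 times higher in WT, and in each of the 4 comparisons the genotypes did not overlap. Its difference passed the threshold of 0.05 in P14 CB, P35 CB and P14 HC (edgeR quasi-likelihood test, adjusted p = 0.000563, 0.00835 and 0.0163). In P35 HC the difference of 16GsoT/T from WT did not pass, at -0.62 ± 0.13 on the log2 scale (SE, adjusted p = 0.12). *Auts2*, on the other side, had means between 59.4 and 94.9 CPM and was 1.43 times higher in WT in P14 HC and 1.4 times higher in 16GsoT/T in P35 CB. The 7 cerebellum markers summed to between 3540 and 5340 CPM (normalised counts, scaled to library size) in CB and to between 18.4 and 149 CPM in HC. The 7 hippocampus markers summed to between 491 and 702 CPM in HC and to between 68.9 and 94.8 CPM in CB. The 5 choroid plexus markers summed to 347 to 1720 CPM in 16GsoT/T and to 78.7 to 92.3 CPM in WT in P35 HC. In P35 CB they summed to 15.1 to 2040 CPM in WT and to 121 to 359 CPM in 16GsoT/T. In P14 CB these sums were 14.5 to 659 CPM and 11.9 to 703 CPM, in the same order. In P14 HC they were 108 to 907 CPM and 89.7 to 1780 CPM. The part of these sums in the results was not tested. Reads that mapped to several positions made up 10.6% to 11.2% of the WT libraries and 7.9% to 8.64% of the 16GsoT/T libraries of P35 CB, and the part of this difference in the values below was not tested either. Reads counted on genes made up 64.8% to 68.1% of the P14 CB libraries and 37.6% to 42.4% of the other libraries. The part of that difference in comparisons of P14 CB with HC or with P35 CB was not tested. In P14 HC the WT and 16GsoT/T libraries ran in separate lanes, and the effects of the genotype and of the lane cannot be told apart. For P35 HC, the labels give dual indexes for W481 and W483 and single indexes for the other 4 libraries.

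Many predicted genes of the mouse are processed pseudogenes, also called retrocopies. They arise when the spliced mRNA of a source gene is reverse transcribed and inserted elsewhere in the genome, which leaves a copy without introns that has its own position and sometimes its own transcripts. A short read from a young copy may match its source gene equally well, and a read is then told apart only where it covers a base that differs.

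Of the 8 genes, 5 were single-exon copies of a spliced gene that the tables also list. Their positions are from GENCODE vM1 on NCBIM37, the build that the submitters' processing notes name. *Gm8615* (chr5:149967022-149967657, minus strand, 636 bases, annotated as a pseudogene) was 99.1% identical to the transcript of *Gnpda1*, which encodes glucosamine-6-phosphate deaminase. *Gm9855* (chr10:41773919-41775160, minus strand, 1242 bases, a pseudogene that RefSeq lists as *Tdg-ps2*) was 99.3% identical to *Tdg*, the thymine DNA glycosylase of base excision repair. *Gm10154* (chr4:83151051-83151458, minus strand, 408 bases, protein-coding in GENCODE and a pseudogene in RefSeq) was 99% identical to *Rpl34*, a protein of the large ribosomal subunit. Its best match was another *Rpl34* copy, *Rpl34-ps1*, at 99.5%. *Gm6969* (chr12:25322866-25323897, minus strand, 1032 bases, a pseudogene) was 97.9% identical to *Cox7a2l*, a factor of respiratory chain supercomplexes. *Gm5801* (chr14:56629373-56630188, minus strand, 816 bases, a pseudogene) was 99.3% identical to *Ube2j2*, a ubiquitin-conjugating enzyme of the endoplasmic reticulum.

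For the other 3 genes no source gene is given. *Aytl1b* had no near-identical match in the annotation. *C030023E24Rik* and *Gm9199* were not searched, since no transcript sequence was available for them. *Aytl1b* (*Lpcat2b* in RefSeq; chr5:107860568-107864058, plus strand, 2 exons, 2783 transcript bases, protein-coding) encodes a lysophosphatidylcholine acyltransferase, and its best match, *Lpcat2*, covered 42.1% of it at 69.3% identity. *C030023E24Rik* is a long noncoding RNA of chromosome X, whose start site was placed at chrX:58444468 on the plus strand by an exact match of its RefSeq promoter, next to *Cdr1* and *C230004F18Rik*. *Gm9199* is a transcribed pseudogene in RefSeq that overlaps *Cysltr2*, and it is not listed under this symbol in the annotation used. *Gm8615* and *Aytl1b* lie on the rearranged chromosome 5, 16.9 Mb and 24 Mb from *Auts2*. The other 5 genes with a position lie on chromosomes 10, 4, 12, 14 and X, none of which takes part in the translocation.

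Sequences here are those of the reference genome, and the bases that the mice themselves carry were not examined. In the reference the copies differ from their source genes at few bases, which can tell reads apart. The following stretches of 120 bases hold the densest such bases in the coding part of 4 pairs, with each base that differs, and the bases present in the copy alone, in capitals. They are written 5′ to 3′ on the transcribed strand. The *Gm9855* stretch is chr10:41774001-41774120, the *Gm10154* stretch chr4:83151120-83151239, the *Gm6969* stretch chr12:25323567-25323686 and the *Gm5801* stretch chr14:56629870-56629989.
Gm9855: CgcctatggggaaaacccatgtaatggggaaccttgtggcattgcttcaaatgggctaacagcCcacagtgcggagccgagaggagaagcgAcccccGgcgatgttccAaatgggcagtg
Tdg: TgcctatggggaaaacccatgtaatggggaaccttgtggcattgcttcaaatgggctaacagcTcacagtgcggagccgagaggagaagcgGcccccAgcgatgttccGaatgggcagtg
Gm10154: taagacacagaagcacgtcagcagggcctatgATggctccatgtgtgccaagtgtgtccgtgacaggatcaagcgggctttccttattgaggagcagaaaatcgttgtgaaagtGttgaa
Rpl34: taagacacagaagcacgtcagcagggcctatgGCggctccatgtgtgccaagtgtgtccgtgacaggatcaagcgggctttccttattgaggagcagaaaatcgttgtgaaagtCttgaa
Gm6969: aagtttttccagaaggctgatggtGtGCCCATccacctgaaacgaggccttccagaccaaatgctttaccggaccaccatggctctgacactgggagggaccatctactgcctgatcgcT
Cox7a2l: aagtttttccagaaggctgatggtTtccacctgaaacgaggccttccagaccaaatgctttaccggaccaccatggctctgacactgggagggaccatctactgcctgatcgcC
Gm5801: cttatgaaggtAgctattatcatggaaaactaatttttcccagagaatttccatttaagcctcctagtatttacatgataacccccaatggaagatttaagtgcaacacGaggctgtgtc
Ube2j2: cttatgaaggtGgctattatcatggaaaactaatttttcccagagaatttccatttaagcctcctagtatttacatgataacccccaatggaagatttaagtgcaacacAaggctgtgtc
In the substitutions given here the base of the source gene comes first, then the position counted from 1 at the 5′ end of the copy's transcript, then the base of the copy. The *Gm9855* stretch holds T1041C, T1104C, G1132A, A1138G and G1149A. The *Gm10154* stretch holds G252A, C253T and C334G. The *Gm6969* stretch holds T236G and C331T together with 6 bases that *Cox7a2l* lacks. The *Gm5801* stretch holds G211A and A309G.

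**Figure D1:**
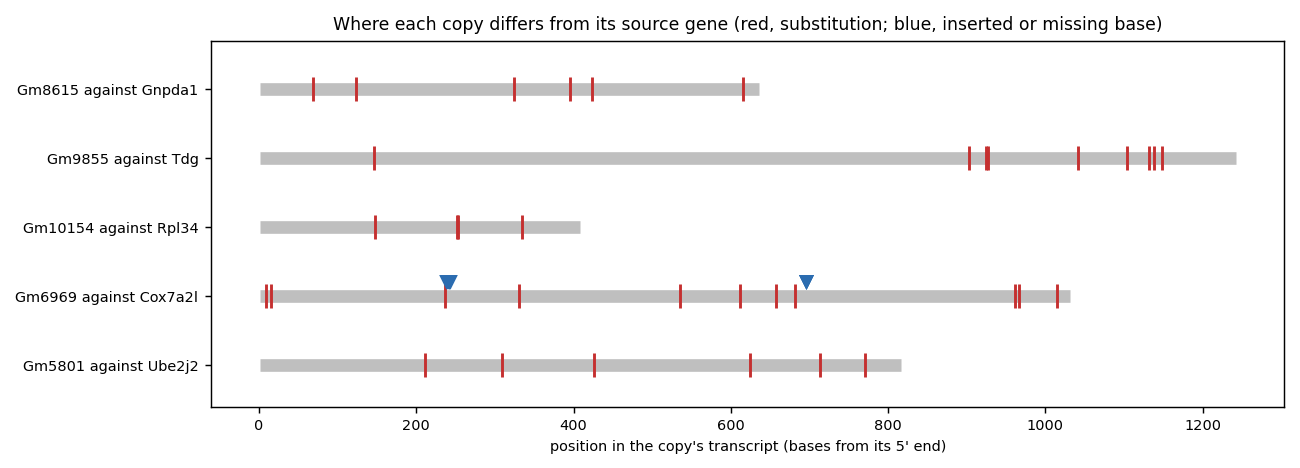
Positions at which each of the 5 copies differs from its source gene, along the transcript of the copy (x axis, bases from its 5′ end). Red lines are substitutions (6, 9, 4, 11 and 6 from top to bottom) and blue triangles are inserted or missing bases, found in *Gm6969* alone. Most substitutions of *Gm9855* lie toward its 3′ end, whereas those of *Gm8615* and *Gm5801* are spread over most of the transcript.

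Over their whole lengths the copies carried 6 (*Gm8615*), 9 (*Gm9855*), 4 (*Gm10154*), 11 (*Gm6969*) and 6 (*Gm5801*) substitutions, and *Gm6969* 11 further inserted or missing bases. Of all stretches of 50 bases in a copy, those found exactly elsewhere in the genome or in a spliced transcript made up 85.9% in *Gm9855*, 85.8% in *Gm10154*, 61.9% in *Gm6969*, 61.4% in *Gm5801* and 57.6% in *Gm8615*. For stretches of 100 bases these shares were 70.8%, 67.3%, 42%, 31.7% and 35.9%. In *Aytl1b* they were 1.4% and 0.0%. These shares describe the reference alone. Where the reads counted for the 5 copies fell, and which gene they came from, was not examined. The read length is not given in the sources used here.

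*Gm8615* was high in one genotype and near 0 in the other in 3 of the 4 comparisons, and the genotype that was high differed between the ages in CB. In P14 CB the WT libraries held 202, 178 and 121 counts and the 16GsoT/T libraries 11, 9 and 13. In P14 HC these were 94, 90 and 102 against 1, 1 and 1. At P14 WT was thus the higher genotype in both regions, with means of 5.43 ± 0.328 CPM (SD, n = 3) against 0.306 ± 0.0208 CPM in CB and 8.85 ± 0.65 against 0.0774 ± 0.00241 CPM in HC. In P35 CB the WT libraries held 2, 0 and 1 counts and the 16GsoT/T libraries 35, 36 and 44. The ratio of the summed levels was 38.9 in favour of 16GsoT/T there, with a 95% counting interval of 13 to 191. In P35 HC the WT libraries held 41, 32 and 30 counts and the 16GsoT/T libraries 36, 0 and 27, so that library B11 alone lacked the gene and the genotypes overlapped. In bulk tissue, fewer cells of a type and less RNA per cell cannot be told apart. The parts of strain differences and of the assignment of reads in these counts were not tested. The overlapping noncoding RNA *5730422E09Rik* had at most 6 counts in any library.

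*Gm9855* was near all-or-none between the genotypes in P35 CB only, of the 4 comparisons. At P14 every library held counts of it, with 638, 641 and 482 in WT and 1319, 729 and 1666 in 16GsoT/T CB. In HC these were 197, 196 and 173 against 403, 229 and 479. Libraries 5 and A14 of the 16GsoT/T groups lay close to WT, at 22.8 and 17.7 CPM, while the other 16GsoT/T libraries lay between 32.1 and 40.7 CPM. The WT libraries of P35 CB held 1, 3 and 0 counts and the 16GsoT/T libraries 164, 90 and 93. In P35 HC the WT libraries held 43, 0 and 1 counts and the 16GsoT/T libraries 1, 27 and 77. Here each genotype had libraries with and without the gene.

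*Gm10154* had at least 20 counts in every 16GsoT/T library and more than 7 counts in only 2 of the 12 WT libraries. The 16GsoT/T counts were 580, 372 and 995 in P14 CB, 250, 122 and 264 in P14 HC, 96, 44 and 55 in P35 CB and 86, 44 and 20 in P35 HC. The WT counts were 7, 4 and 230 in P14 CB and 2, 0 and 114 in P14 HC. Library 3 of CB and library N6 of HC were the exceptions, at 10 and 10.5 CPM. At P35 the WT counts were 0, 2 and 2 in CB and 2, 0 and 0 in HC. In P35 HC the summed level was 81.8 times higher in 16GsoT/T, with a 95% counting interval of 22.2 to 681.

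*Gm6969* was higher in every 16GsoT/T library than in any WT library of the same region and age. In P14 CB the WT libraries had 249, 388 and 148 counts and the 16GsoT/T libraries 475, 563 and 757, and in P14 HC 92, 111 and 83 against 243, 246 and 249. At P14 the mean levels differed by 2.0 times in CB and 2.15 times in HC. For P35 CB the WT counts were 30, 0 and 1 against 88, 83 and 76, with library M27 alone in WT above 1 count. In P35 HC the WT libraries had 0 counts each against 125, 44 and 73. Against a floor of 3 counts over the WT group, the 16GsoT/T level was at least 84.4-fold higher there.

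*Gm5801* was found in WT mice alone, except for a few reads. In P14 CB the WT libraries held 56, 38 and 33 counts against 2, 0 and 7 in 16GsoT/T. In P14 HC they held 24, 27 and 28 against 0, 1 and 0, and in P35 HC 11, 8 and 4 against 0, 0 and 0. In P35 HC the WT level was at least 6.97-fold higher against the same floor. In P35 CB each of the 6 libraries had 0 counts.

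*Gm9199* also tended to WT at P14. Its counts in P14 CB were 102, 134 and 52 in WT and 0, 0 and 0 in 16GsoT/T, a level at least 109-fold higher in WT. In P14 HC they were 20, 19 and 29 against 6, 6 and 2. At P35 the counts were 12, 1 and 1 against 0, 0 and 4 in CB and 2, 8 and 4 against 0, 3 and 12 in HC, and the genotypes overlapped in both regions. *Cysltr2*, the leukotriene receptor gene that it overlaps, had between 0 and 26 counts in all libraries.

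*C030023E24Rik* differed from the other members in that no library lacked it. It was highest in CB at P14, with 1320, 1605 and 1057 counts in WT and 1739, 1421 and 1564 in 16GsoT/T. In P35 CB the WT libraries had 209, 284 and 148 counts and the 16GsoT/T libraries 13, 14 and 28, means of 31.7 ± 3.87 and 2.79 ± 1.2 CPM (SD, n = 3). The HC counts were 105, 98 and 104 against 78, 72 and 118 at P14, and the mean level was 1.38 times higher in WT. In CPM the genotypes did not overlap there (means of 9.5 and 6.88), though the closest libraries both rounded to 8.84. At P35 the HC counts were 68, 24 and 57 against 70, 40 and 50, and the genotypes overlapped. A level many times lower in 16GsoT/T was thus seen in P35 CB only, of the 4 comparisons.

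*Aytl1b* was low in most groups. In P14 CB the WT libraries held 50, 72 and 2 counts and the 16GsoT/T libraries 124, 109 and 69. In P14 HC they held 31, 29 and 3 against 66, 71 and 49. The WT libraries at 2 and 3 counts were again 3 and N6, the libraries that stood apart in *Gm10154*. The counts of P35 CB were 2, 0 and 0 against 0, 10 and 7, and the genotypes overlapped. In P35 HC they were 1, 0 and 1 against 17, 31 and 48, and the ratio of the summed levels was 52.3, with a 95% counting interval of 14.1 to 438.

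**Figure D2:**
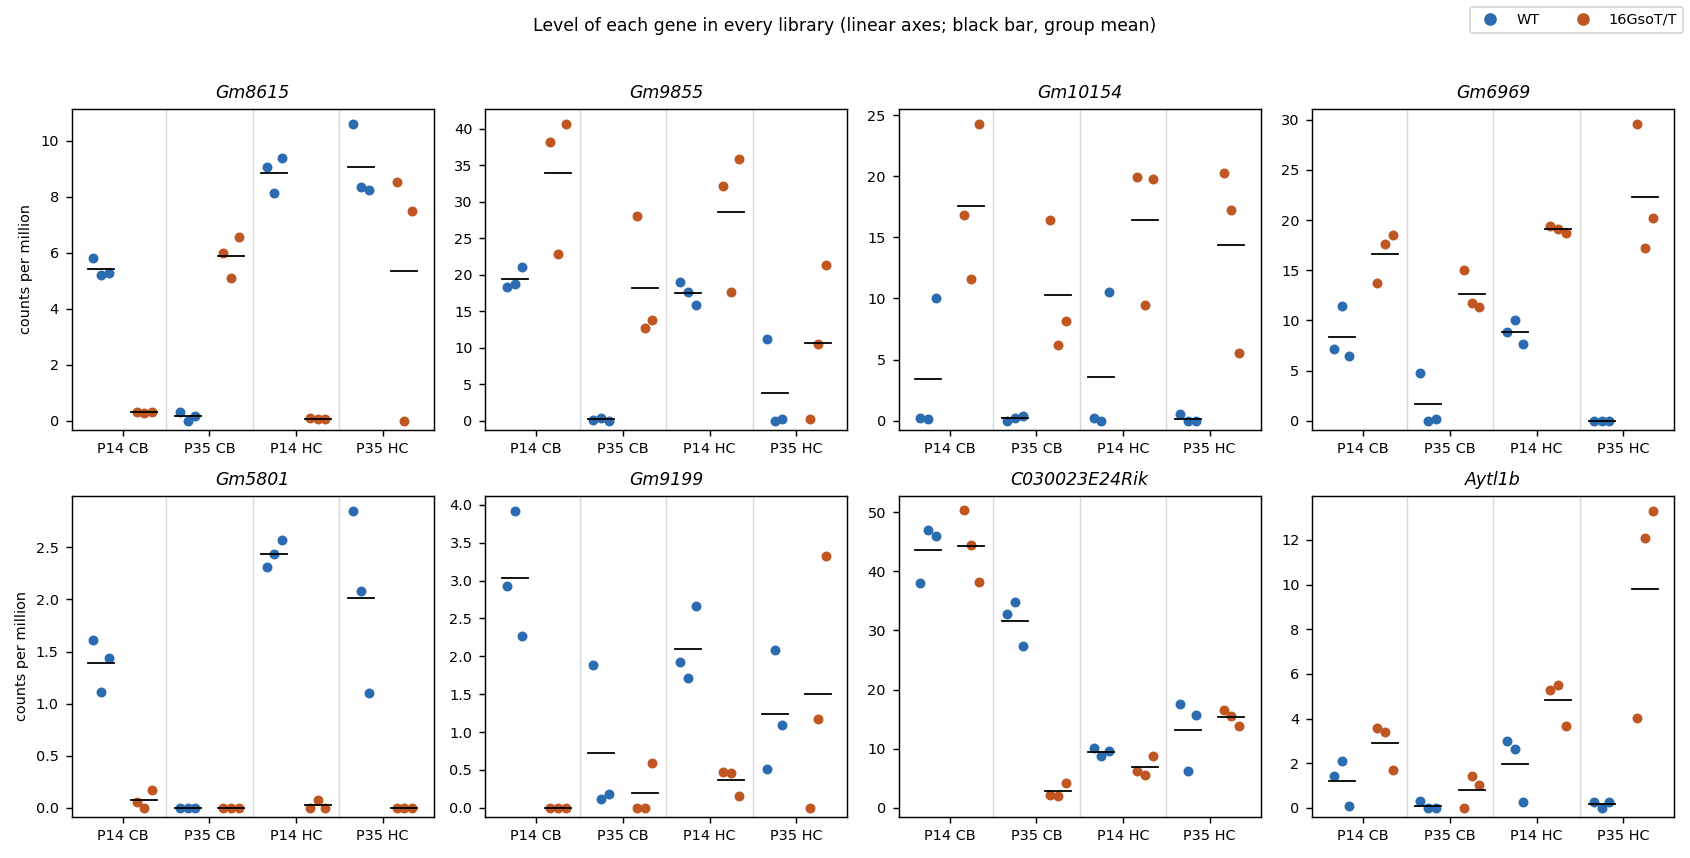
Level of the 8 genes in every library, in CPM on linear axes that differ between panels, with WT in blue, 16GsoT/T in orange, a point per library and a black bar at the group mean (n = 3). *Gm8615* is near 0 in 16GsoT/T at P14 and near 0 in WT in P35 CB, and *C030023E24Rik* is low in the 16GsoT/T libraries of P35 CB.

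By the rule of at most 3 counts in every library of one genotype and at least 10 in every library of the other, 1 member was all-or-none in P14 CB (*Gm9199*), 3 in P35 CB (*Gm8615*, *Gm9855* and *Gm10154*), 2 in P14 HC (*Gm8615* and *Gm5801*) and 3 in P35 HC (*Gm10154*, *Gm6969* and *Aytl1b*). Over all genes that reached 10 counts in every library of a genotype, this pattern was met in CB by 4 of 15557 genes (0.0257%) at P14 and 15 of 13737 (0.109%) at P35, and in HC by 2 of 15046 (0.0133%) at P14 and 6 of 12899 (0.0465%) at P35. Since the members were chosen for this pattern, nothing follows from their share of these lists. Genes with predicted or clone-derived names (Gm, LOC, Rik and the like) were 2 of the 4, 10 of the 15, 2 of the 2 and 2 of the 6, while they made up between 11.6% and 14.5% of the genes that could have met the rule. The predicted names in HC were all members, *Gm8615* and *Gm5801* at P14 and *Gm10154* and *Gm6969* at P35. Those in CB included members, so nothing follows from these shares either. The other 4 genes of P35 HC included *Folr1* and *Kcnj13*, both known from choroid plexus epithelium. These 2 were named after their values were seen.

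The all-or-none pattern was also found within genotypes. A gap of at most 3 counts in one library and at least 30 in another library of the same group was met by *Aytl1b* in WT P14 CB, *Gm6969* in WT P35 CB, *Gm10154* and *Aytl1b* in WT P14 HC, *Gm9855* in WT P35 HC, and *Gm8615* and *Gm9855* in 16GsoT/T P35 HC. Of all genes that reached 30 counts in a library of the group, 0.164% did so in WT P14 CB, 0.118% in WT P35 CB, 0.0658% in WT P14 HC, 0.113% in WT P35 HC and 0.139% in 16GsoT/T P35 HC. No member met it in 16GsoT/T P14 CB, P35 CB or P14 HC, where 0.338%, 0.186% and 0.185% of genes did. Gaps of this kind between libraries of one genotype were thus seen for members in 5 of the 8 groups.

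*Gnpda1* and *Tdg*, the source genes closest in level to their copies, were lower in P35 CB in the genotype in which the copy was high. In P35 CB, *Gnpda1* had 106, 120 and 73 counts in WT, where *Gm8615* was near 0, and 50, 56 and 54 in 16GsoT/T. Its counted level was lower by 0.89 ± 0.147 on the log2 scale (SE) in 16GsoT/T (edgeR quasi-likelihood test, adjusted p = 0.000625). *Tdg* had 252, 302 and 211 counts in WT and 69, 187 and 189 in 16GsoT/T, and its counted level was lower by 0.80 ± 0.211 (adjusted p = 0.0111). This call was lost in DESeq2 (adjusted p = 0.0966). At P14, where *Gm8615* was near 0 in 16GsoT/T, the difference in *Gnpda1* was 0.40 ± 0.103 in CB (adjusted p = 0.201) and 0.50 ± 0.114 in HC (adjusted p = 0.0863), neither past the threshold. *Rpl34*, *Cox7a2l* and *Ube2j2* passed it in none of the 4 comparisons, with adjusted p between 0.218 and 0.985 in edgeR. A source gene and its copy may share reads, so these tests are not free of the values for which the copies were chosen. Whether the source genes themselves were expressed less was not tested apart from this.

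Summed over the pair, the reads of *Gm9855* and *Tdg* were nearly even between libraries. The level of *Gm9855* in P35 CB ran from 0 to 28 CPM and that of *Tdg* from 11.8 to 39.5 CPM, while their sum lay between 37.4 and 42 CPM in all 6 libraries. The coefficient of variation over these 6 libraries was 35.2% for *Tdg* and 3.78% for the sum. It was also lower for the sum in P14 CB (7.37% against 30.5%), P14 HC (5.08% against 28.4%) and P35 HC (14.2% against 40.0%). Library C19, with the most *Gm9855* of P35 CB, had the least *Tdg*.

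The sum of *Gm10154* and *Rpl34* also varied less than the source gene but was less even. It varied by 10.9% and 12.6% in CB at P14 and P35 and by 8.5% and 15.4% in HC. For *Rpl34* alone these were 19.2%, 13.7%, 16.4% and 22.3%. In P35 CB this sum ran from 70.5 to 98.2 CPM. The mean of *Rpl34* was not lower there in 16GsoT/T, where the copy was high (80.5 against 78.3 CPM in WT). For *Gm8615* and *Gnpda1* the sum varied less than *Gnpda1* in P14 CB (10.1% against 17.4%), P35 CB (9.04% against 33.3%) and P14 HC (11.1% against 20.1%), and more in P35 HC (16.5% against 13.4%). For *Gm6969* and *Cox7a2l* the order was the other way round, and the sum varied by 8.37%, 6.02%, 8.65% and 11.4% against 5.16%, 3.73%, 6.9% and 8.07% for *Cox7a2l*. *Gm5801* was low beside *Ube2j2*, at up to 2.85 CPM against 25.3 to 43.0 CPM. The sum of this pair varied less than *Ube2j2* in P14 CB (5.75% against 7.43%), P14 HC (5.07% against 6.65%) and P35 HC (11.8% against 13.4%), and in P35 CB the copy had no counts. The sum thus varied less than the source gene in all 4 comparisons for 2 pairs, in 3 comparisons for 2 pairs and in none for *Gm6969* and *Cox7a2l*.

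**Figure D3:**
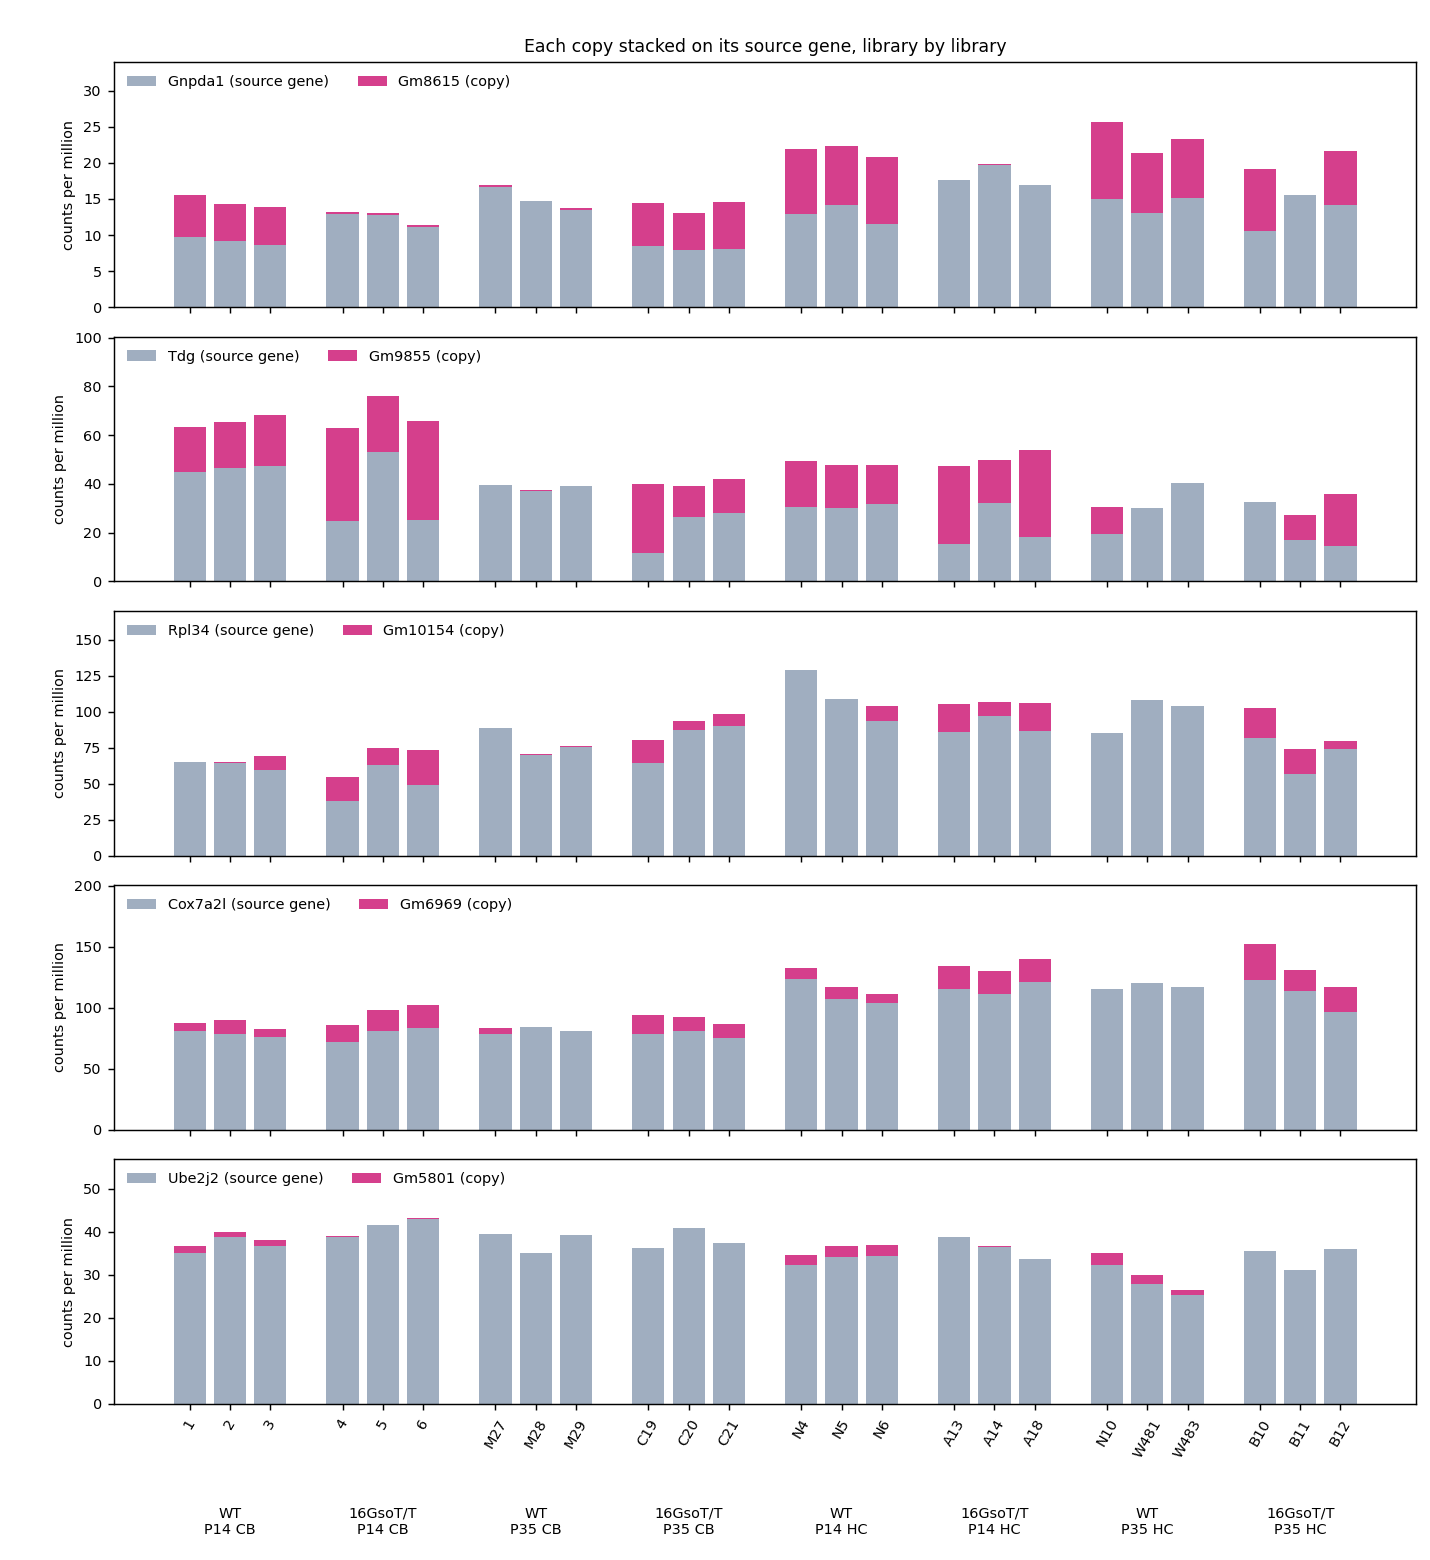
Level of each copy (pink) stacked on that of its source gene (grey) in each of the 24 libraries, in CPM, with libraries grouped by genotype, age and region. In P35 CB the stacks of *Gm9855* and *Tdg* reach between 37.4 and 42 CPM in all 6 libraries, with and without the pink part.

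Each pair was also counted as 1 feature. The log2 difference of 16GsoT/T from WT for *Gm8615* plus *Gnpda1* was -0.24 ± 0.0977 (SE) at P14 and -0.13 ± 0.134 at P35 in CB, and -0.25 ± 0.0911 at P14 and -0.30 ± 0.179 at P35 in HC. For *Gm9855* plus *Tdg* it was 0.03 ± 0.0749, 0.04 ± 0.0825, 0.07 ± 0.0693 and -0.07 ± 0.171 in the same order. It was 0.12, 0.12, 0.17 and 0.19 for *Gm6969* plus *Cox7a2l*, and 0.01, 0.20, -0.10 and -0.21 for *Gm10154* plus *Rpl34*. For *Gm5801* plus *Ube2j2* it was 0.08, 0.00, 0.02 and 0.18. The sum of *Gm8615* and *Gnpda1* did not overlap between the genotypes at P14. In 16GsoT/T it was 11.4 to 13.2 CPM in CB and 17 to 19.8 CPM in HC. In WT it was 13.9 to 15.5 and 20.9 to 22.3 CPM. These sums contain the reads of the members and are therefore given without a test, and they were added after the counts were seen.

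The share of a pair's reads that went to the copy took separate levels. For *Gm8615*, the share was at most 2.78% in 10 libraries and at least 34.6% in the other 14, with no library between. In those 14 libraries it ranged from 34.6% to 44.9%, in both genotypes, both regions and both ages. The share of *Gm9855* was at most 0.984% in 6 libraries, between 28.8% and 38.6% in 12 and between 59.7% and 70.4% in 6. The 6 libraries of the highest level were 4, 6, C19, A13, A18 and B12, all from 16GsoT/T mice. The 12 in the middle came from both genotypes and were the 6 WT libraries of P14, N10, 5, A14, C20, C21 and B11. The 95% Wilson intervals of this share, which cover counting error only, reached from 51.1% to 67.8% in B12 and from 28% to 50.3% in B11, the closest libraries on either side of the upper gap.

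The share of *Gm10154* was at most 0.606% in 10 libraries and at least 6.65% in the other 14. Within P14 CB it was 14.5% in library 3 and 15.5% in library 5, against 30.6% and 33.1% in libraries 4 and 6. Within P14 HC it was 10% in N6 and 8.85% in A14, against 18.9% and 18.6% in A13 and A18. In P35 CB it was 20.3% in C19 against 6.65% and 8.33% in C20 and C21. The 5 libraries at the higher value in these 3 sets were also at the highest level of *Gm9855*. In P35 HC the libraries did not follow that order, since B10 had 19.9% for *Gm10154* and 0.725% for *Gm9855*. *Gm6969* took at most 0.229% of its pair in 5 libraries, all WT at P35, and from 5.64% to 19.4% in the other 19. *Gm5801* took at most 0.396% in 15 libraries and from 2.79% to 8.15% in 9, all WT. Further near-copies, *Gm5806* of *Tdg* (98.9% identical to *Gm9855*) and *Gm6404* of *Rpl34* (97.5% identical to *Gm10154*), had at most 2 counts and at most 1 count in any library. *Gm10086*, also a near-copy of *Rpl34* (98.5% identical to *Gm10154*), had at most 7 counts, and in P14 HC it had 5, 2 and 4 in WT and 0, 2 and 1 in 16GsoT/T.

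**Figure D4:**
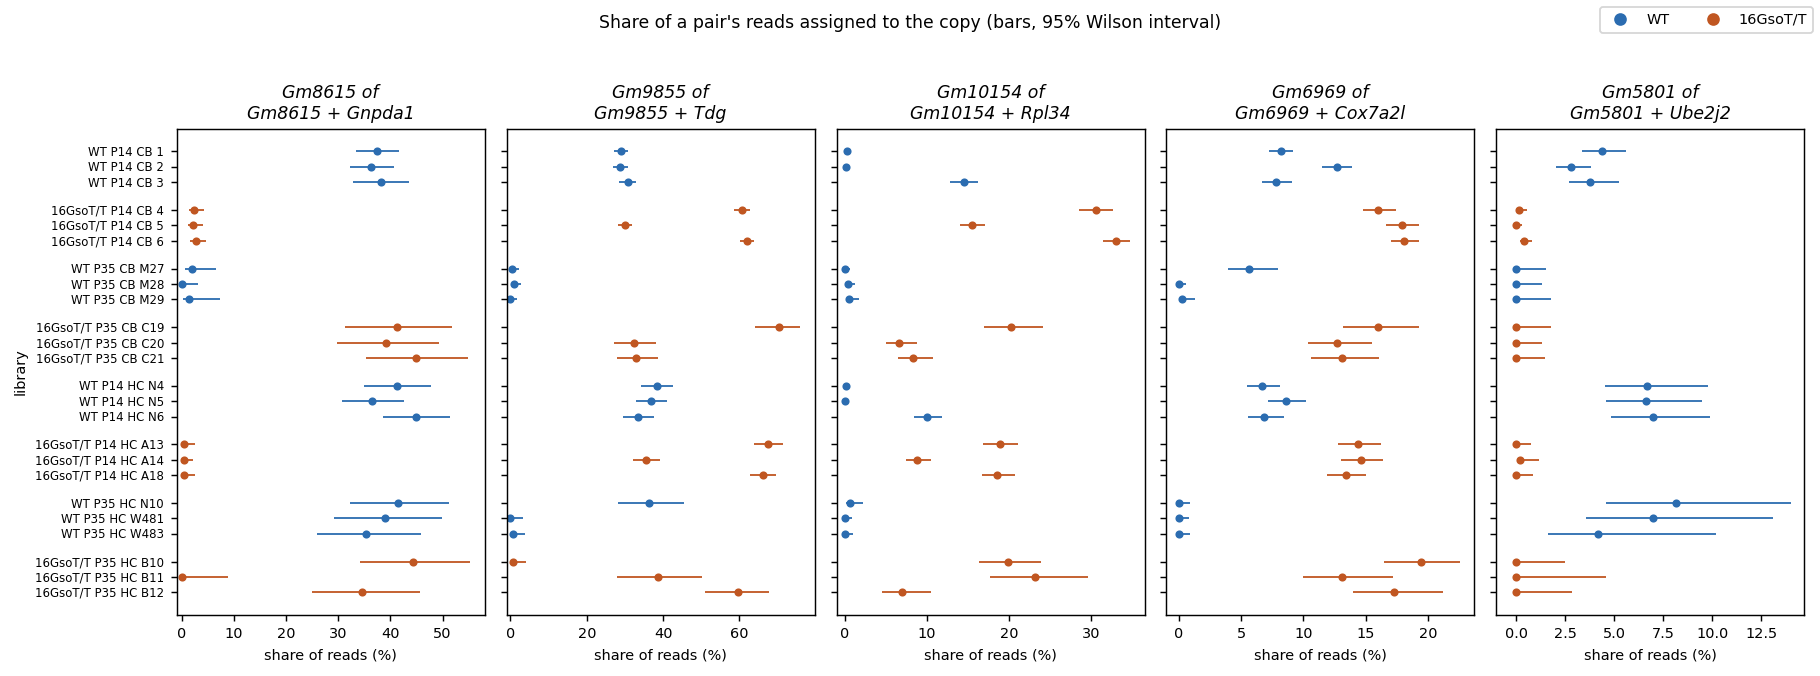
Share of the reads of each pair that were assigned to the copy, in percent (x axis, scales differ), in every library (y axis), with WT in blue, 16GsoT/T in orange and bars for the 95% Wilson interval. *Gm8615* falls at most at 2.78% or at least at 34.6%, and *Gm9855* at 3 levels, with gaps from 0.984% to 28.8% and from 38.6% to 59.7%.

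The regions were compared within each genotype and age. A test is given only for genes whose genotype means lay less than 5-fold apart in both regions at that age. This limit was set after the values were seen. The members were chosen from counts that include these libraries, so the p-values are not independent of that choice. The genes tested were *Gm9855*, *Gm6969*, *C030023E24Rik* and *Aytl1b* at P14. At P35 only *Gm9199* lay under this limit, and it had too few counts to be tested. Region coincides with sequencing lane, and at P14 also with the share of reads on genes (at least 64.8% in CB, at most 42.3% in HC). The effects of the region, of the lane and of this share cannot be told apart. *C030023E24Rik* was higher in CB than in HC in WT at P14, with 43.7 ± 4.97 against 9.5 ± 0.637 CPM (SD, n = 3), a log2 difference of 2.20 ± 0.112 (SE; edgeR quasi-likelihood test, adjusted p = 4.32e-08). It was also higher in CB in 16GsoT/T at P14 (2.67 ± 0.17, adjusted p = 7.2e-07). At P35 its mean in WT was 31.7 CPM in CB and 13.2 CPM in HC, and in 16GsoT/T 2.79 CPM in CB and 15.3 CPM in HC.

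*Aytl1b* was lower in CB in 16GsoT/T at P14, with 2.9 ± 1.05 against 4.81 ± 0.996 CPM and a log2 difference of -0.76 ± 0.299 (adjusted p = 0.0444). It was no longer called when all 12 libraries of the age were fitted together (adjusted p = 0.26) or without library A13 (0.121), A14 (0.137) or 6 (0.0872). In WT its difference was -0.61 ± 0.766 (adjusted p = 0.485). *Gm9855* and *Gm6969* did not pass the test in either genotype (adjusted p between 0.134 and 0.755). In all, 1 of 4 members tested was called in WT at P14 and 2 of 4 in 16GsoT/T at P14, against 77.2% and 74.7% of all genes. For the other genes the regions are given as levels. The mean of *Gm8615* in WT was 5.43 CPM in CB and 8.85 CPM in HC at P14, and 0.166 and 9.07 CPM at P35. *Gm5801* in WT had 1.39 and 2.44 CPM at P14. At P35, *Aytl1b* in 16GsoT/T had 0.818 CPM in CB and 9.81 CPM in HC, and *Gm6969* 12.7 and 22.3 CPM.

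Genes near the members were called by edgeR in P35 CB alone, of the 4 genotype comparisons. Within 500 kb of the 8 genes the tables list 107 other genes, and 0 of 72 tested were called in P14 CB, 0 of 72 in P14 HC and 0 of 65 in P35 HC (edgeR quasi-likelihood test), where 0.506%, 0.814% and 0.135% of all genes were. At an unadjusted p under 0.05 these counts were 4, 8 and 3, and DESeq2 called 1, 0 and 0. In P35 CB 21 of 69 were called, 30.4% against 35.3% of all genes, 7 of them higher and 14 lower. The median log2 difference of the neighbours was 0.01 and -0.05 in CB at P14 and P35 and 0.00 and 0.02 in HC.

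The nearest tested gene on each side of *Gm8615* was *Uspl1* (28.3 kb) and *Hmgb1* (101.9 kb), a chromatin protein. In P14 HC, where *Gm8615* differed most, their log2 differences were -0.08 ± 0.0755 and 0.02 ± 0.0693. *Ephx4* (1.5 kb) and *A830010M20Rik* (3.0 kb) beside *Aytl1b* differed by -0.31 ± 0.171 and 0.15 ± 0.119 in P35 HC. Beside *Gm10154*, *Psip1* (18.7 kb) differed by -0.10 ± 0.0689 in P35 CB, and *4930473A06Rik*, on the other side, by -0.61 ± 0.417. *Armc2* (35.7 kb) beside *Gm9855* differed by -0.63 ± 0.316 in P35 CB, not past the threshold, while *Foxo3* (126.5 kb), a forkhead transcription factor, rose by 0.63 ± 0.0608 (adjusted p = 1.2e-05). *Klf11* (12.3 kb) and *Grhl1* (20.6 kb) beside *Gm6969* differed by 0.23 ± 0.283 and 0.00 ± 0.149 in P35 HC, and *Sdr39u1* (110.3 kb) and *Rnf17* (391.3 kb) beside *Gm5801* by 0.02 ± 0.0728 and -0.49 ± 0.355 in P14 CB. *Cysltr2*, which *Gm9199* overlaps, differed by 0.23 ± 0.328 in P14 CB, not past the threshold. The nearest tested genes on either side of *Gm9199* were *Rcbtb2* and *Fndc3a*. They differed by 0.35 ± 0.0684 (edgeR quasi-likelihood test, adjusted p = 0.0729) and -0.01 ± 0.0573 in P14 CB.

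Near *C030023E24Rik* both tested genes were also lower in 16GsoT/T in P35 CB. *Cdr1*, 5.7 kb away, fell by 0.68 ± 0.153 on the log2 scale (adjusted p = 0.00471). *C230004F18Rik*, 15.3 kb away, fell by 0.93 ± 0.233 (adjusted p = 0.00838). Both fell by less than *C030023E24Rik*, whose WT level was 11.4 times its 16GsoT/T level. In P35 HC neither was called, with differences of -0.69 ± 0.237 for *Cdr1* (adjusted p = 0.396) and -0.34 ± 0.391 for *C230004F18Rik* (adjusted p = 0.882). The difference of *Cdr1* was thus about as large there as in P35 CB, without overlap of the genotypes, while the genotypes overlapped in *C030023E24Rik*. The genes of this locus may share reads, since the strand option of the counting is not given in the sources used here.

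Other genes called in P35 CB within 500 kb were *Cdc7* (-0.83 ± 0.115), *Evi5* (-0.58 ± 0.0768), *Glmn* (-0.58 ± 0.152) and *Fam69a* (-0.25 ± 0.0735) around *Aytl1b*, *Frem1* (-0.93 ± 0.18) and *Snapc3* (-0.57 ± 0.123) around *Gm10154*, and *Katnal1* (0.49 ± 0.0831) and *Hsph1* (0.68 ± 0.143) around *Gm8615*. Around *Gm5801* the largest of 7 were *Rec8* (-2.71 ± 0.313), a meiotic cohesin, *Adcy4* (-1.21 ± 0.386), *Cpne6* (1.10 ± 0.298) and *Tm9sf1* (-0.26 ± 0.0916). Around *Gm9199* they were *Lpar6* (-1.40 ± 0.329) and *Rb1* (-0.51 ± 0.0779), and around *Gm9855*, beside *Foxo3*, *Snx3* (0.30 ± 0.0698). Around *Gm6969* 0 of 8 were called in edgeR.

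*Aytl1b* belongs to the lysophospholipid acyltransferases, enzymes that attach a fatty acid to a lysophospholipid and so remodel membrane phospholipids. Of 17 other genes of this group, 0 of 17 tested were called in P14 CB, 0 of 16 in P14 HC and 0 of 15 in P35 HC by edgeR, where 3, 4 and 2 had an unadjusted p under 0.05 and DESeq2 called 0, 0 and 0. In P35 HC, where *Aytl1b* was highest, the closest homologue *Lpcat2* had 9.08, 6.24 and 7.98 CPM in WT and 13.5, 13.3 and 10.5 CPM in 16GsoT/T, a log2 difference of 0.68 ± 0.245 (adjusted p = 0.428). In P35 CB 6 of 16 were called. Of these, 3 rose, among them *Mboat7* (0.44 ± 0.106) and *Agpat6* (0.31 ± 0.0712), and 3 fell, among them *Lpcat2* (-1.23 ± 0.322) and *Mboat1* (-1.20 ± 0.283), where 35.3% of all genes were called.

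Over the 24 libraries, the genes whose log2 level was most similar to that of a member were given by Pearson's r as a description, since the libraries share regions, ages and lanes. They were *Gm4705* (r = 0.96) and *A930005H10Rik* (0.72) for *Gm10154*, *Tia1* (0.96) and *Ttc14* (0.95) for *C030023E24Rik*, *L1cam* (0.84) and *Pgd* (0.83) for *Gm9855*, and *Rbm28* and *Glt1d1* (both 0.79) for *Gm5801*. For *Gm8615* they were *Lilrb3* (0.77) and *Epas1* (0.72), for *Gm6969* *Ssr2* and *LOC100504731* (both 0.77), for *Aytl1b* *Gm1661* (0.77) and *Tpbg* (0.76), and for *Gm9199* *Myo7a* (0.71) and *Mertk* (0.70). With its source gene each copy had a negative r, which was -0.53 for *Gm8615*, -0.51 for *Gm5801*, -0.45 for *Gm10154*, -0.37 for *Gm9855* and -0.09 for *Gm6969*.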

How the data were processed

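The 24 libraries hold mRNA of CB and HC from WT and 16GsoT/T mice of both ages. The authors mapped reads with TopHat2 2.0.8 to NCBIM37, counted them per gene with HTSeq 0.6.1, and deposited raw counts without normalization, in 1 table per age. The annotation and strand option of the counting are not given in the sources used here. Summary lines that name no gene (among them 7.27% to 13.9% of reads with more than one mapping position) were left out of library sizes. Each library took its group from its label. The study's text names a KAPA kit and the labels a TruSeq Stranded mRNA kit. Replicate numbers were given in listing order and serve as names only. P-values measure the spread between 3 libraries per group.

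Counts were scaled by TMM and fitted per comparison with the quasi-likelihood test of edgeR 4.0.16 in R 4.3.3, and filterByExpr (min.count 10, min.total.count 15) removed weakly counted genes. A gene was called at an adjusted p (Benjamini-Hochberg, all genes tested) of at most 0.05. The procedure was tested on simulated data. CPM in the text use TMM factors over all 24 libraries, and errors of log2 differences are standard errors. A fold against a group at 0 uses a floor of 3 counts over the group. Counting intervals are exact binomial (ratios) or Wilson (shares), and PCR duplicates are not accounted for. Source genes are the spliced genes in the tables that blastn 2.17.0 matched to at least 80% of a copy at 95% identity. The named genes were the 8 members, *Wbscr17* and *Auts2*, the best sequence matches, the nearest tested gene on each side and up to 4 called genes within 500 kb of each member, the 2 most similar genes by Pearson's r of log2(CPM + 0.5), and up to 4 called acyltransferases per comparison. The members and lists were chosen with earlier results of these data known.

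Alternatives were DESeq2 size factors, DESeq2 1.42.0, no filter on low counts, 1 fit per age, leaving out each library, a covariate for library batch in P35 HC, other count limits and other windows around the genes. Summing each pair was added after the data were seen.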

Additional observations from a re-analysis of the deposited data

Results flagged for a closer look

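The genotype that was high in *Gm8615* differed between the ages in CB. Its mean level in 16GsoT/T was 0.306 CPM in P14 CB, below every WT library, and 5.87 CPM in P35 CB, above every WT library. The difference between the ages was not tested, since the gene was chosen for these values. At P14 *Gm8615* was also lower in CB than in HC in WT (5.43 against 8.85 CPM) and higher in CB in 16GsoT/T (0.306 against 0.0774 CPM), where HC held 1 count per library.

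For *C030023E24Rik* the order of the regions differed between the genotypes at P35. The mean was 31.7 CPM in CB and 13.2 CPM in HC in WT, and 2.79 CPM in CB and 15.3 CPM in HC in 16GsoT/T. Within 16GsoT/T the order also differed between the ages, with 44.3 CPM in CB and 6.88 CPM in HC at P14. In each case every CB library of a group lay on the same side of every HC library, and the difference between the orders was not tested. Groups of 3 libraries were not examined for single outlying values.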

How the results depend on the processing

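No paired analysis was run, because the labels give the groups no shared replicate numbers. Of 117 repeats of counts and shares under the alternatives, 86 stayed within 1.5 times the value reported. In P14 CB DESeq2 called 234 genes in place of 81. In P14 HC it called 397 genes in place of 124, and 1 fit of the age called 326. In P35 HC DESeq2 called 45 genes in place of 18, no filter on low counts 134, and 1 fit of the age 37. A covariate for library batch in P35 HC, which sets N10 alone against the 16GsoT/T libraries because W481 and W483, the libraries with dual indexes, were coded as the other batch, called 18 genes, the number called without it. Between regions in 16GsoT/T at P14, 1 member was called in the joint fit in place of 2.

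With each library left out in turn, the genes called ranged from 33 to 181 in P14 CB (33 to 46 without library 1, 2, 3 or 5, 181 without library 4), from 13 to 114 in P14 HC (13 to 33 without A13, A14, N4 or N5) and from 6 to 139 in P35 HC (6 without B12, 10 without W481, 40 without B11, 139 without N10). The members called between regions in 16GsoT/T at P14 ranged from 1 to 2 (1 without A13, A14 or 6). All-or-none genes by at most 0 against at least 10 counts numbered 2 (P14) and 3 (P35) in CB and 0 (P14) and 1 (P35) in HC, and by at most 3 against at least 30 counts 1, 3, 1 and 1 in that order, in place of 4, 15, 2 and 6. The lower *Tdg* of P35 CB had a log2 difference of 0.04 when its pair was summed, a value given with no test. The share of neighbours called in P35 CB was 29.7% within 250 kb and 35.1% within 1000 kb. Depth limits weakly counted genes most in P35 HC, with 2563968 to 4127478 reads on genes.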

Other observations

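The labels do not say whether the P14 CB and P14 HC libraries came from the same mice. The libraries that stood apart in *Gm10154* and *Aytl1b*, 3 of CB and N6 of HC, had deviations from their WT group means that correlated at r = 0.16 over 13702 other genes, the highest of the 9 pairs of WT libraries at P14. Libraries 1 and N4 correlated at 0.08 and libraries 2 and N5 at 0.03. Among the 16GsoT/T libraries at P14 the highest values were 0.30 for libraries 4 and A13 and 0.30 for 6 and A18, and these 4 libraries were among the 6 with the highest share of *Gm9855*. Library 5 correlated best with A14 (r = 0.17), and both lay in the middle level of that share. At P35 the highest value was 0.11. Genes within a library are not independent, and these values are descriptions. The P14 pairs named here hold the same place in the listing order of their groups, and a fit blocked by that order was not run. The tests between regions treat the libraries as separate samples.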
